A study of Mus musculus with 2 samples.

Results

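The distal microRNA array of the Dlk1-Dio3 imprinted domain was examined in the neural tube of mouse embryos at embryonic day 11.5 (E11.5). MicroRNAs (miRNAs) are short RNAs, cut from the arms of a folded hairpin, that lower the output of mRNAs carrying a match to their seed, bases 2 to 8 of the miRNA. The members were defined by position, as the miRNA gene rows lying between the Mir379 and Mir3072 hairpins on mouse chromosome 12 (GRCm38, the assembly also named mm10). Earlier results of these data were known when this stretch was chosen. The members numbered 38 of the 1973 miRNA gene rows, and their hairpins spanned 38901 bases (chr12:109709060-109747960), all on the plus strand. For 34 members the value is the count on the gene's own strand. The other 4, Mir409, Mir376a, Mir380 and Mir299a, had no row of their own and were read as the opposite-strand count of the minus-strand rows Gm24321, Gm25252, Gm25750 and Mir299b, which cover the same bases. Mir376b and Gm44322, which also lie in the window, had no row in the counts and are missing from the array's sums.

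The series held 1 group of 2 small RNA libraries from tissue of strain B6NCrl, with no mutation or treatment named and no other stage. Each library came from its own pool of healthy embryos of mixed sex, 109 in replicate 1 and 88 in replicate 2, and RNA below 30 nt was sequenced. Pools average over embryos, so differences between single animals are not seen. Levels are given as CPM, the count scaled to a fixed total of own-strand counts on miRNA genes, with mean ± SD over n = 2. Own-strand counts came to 3708662 in replicate 1 and 4055883 in replicate 2. Each read is taken as 1 whole mature miRNA and was not divided by hairpin length. How evenly the libraries captured different sequences was not measured. The tissue is bulk, so fewer cells of a type and less RNA per cell cannot be told apart.

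As background, the Dlk1-Dio3 domain codes for proteins such as Dlk1, Rtl1 and Dio3 on the chromosome inherited from the father. Its noncoding RNAs Meg3, Rian and Mirg, together with the miRNAs and small nucleolar RNAs between and within them, are made from the chromosome inherited from the mother. The distal array holds most of the miRNA genes of this domain, and many of its hairpins arose from one another by tandem duplication. Its members are best known from neurons, where miR-134 restrains the growth of dendritic spines and miR-485 acts on synaptic proteins. The hairpins of miR-376a and miR-381 are known targets of adenosine-to-inosine editing in brain, which gene counts do not show.

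Mature sequences for 37 of the 38 members, 69 arms in all, were found in the RefSeq table of GRCm38.p6. Only Gm27379 was without one. For Mir487b, Mir376c, Mir539, Mir485 and Mir453 only a single arm was found, namely miR-487b-5p, miR-376c-5p, miR-539-5p, miR-485-3p and miR-453. Any other arm of these hairpins is missing from the counts of seeds below. The 69 arms carried 64 distinct seeds, so most members differ from one another in the bases that select targets. The sequences below are arms of the 7 members with the highest mean levels, followed by miR-134-5p for its known role in neurons. Capitals mark the seed (bases 2 to 8), each is written 5′ to 3′, and the counts do not tell the arms of a hairpin apart.
miR-487b-5p (chr12:109727347-109727367, plus strand): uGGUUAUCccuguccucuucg
miR-411-5p (chr12:109710190-109710210, plus strand): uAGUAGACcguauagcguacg
miR-411-3p (chr12:109710225-109710246, plus strand): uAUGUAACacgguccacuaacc
miR-409-5p (chr12:109743172-109743194, plus strand): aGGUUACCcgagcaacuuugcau
miR-409-3p (chr12:109743204-109743225, plus strand): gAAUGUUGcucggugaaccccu
miR-541-5p (chr12:109742422-109742446, plus strand): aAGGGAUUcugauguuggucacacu
miR-541-3p (chr12:109742466-109742487, plus strand): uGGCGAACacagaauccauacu
miR-376a-3p (chr12:109723824-109723844, plus strand): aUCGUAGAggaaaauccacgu
miR-379-5p (chr12:109709065-109709085, plus strand): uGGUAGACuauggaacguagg
miR-379-3p (chr12:109709102-109709123, plus strand): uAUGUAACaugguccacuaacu
miR-369-3p (chr12:109743466-109743486, plus strand): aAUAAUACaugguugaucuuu
miR-134-5p (chr12:109734145-109734166, plus strand): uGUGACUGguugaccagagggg

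The array was expressed in most of its members, and a few hairpins held most of its reads. It took 196300 counts in replicate 1 and 180818 in replicate 2. Its share of own-strand counts, with the reads of the 4 opposite-strand members added to the total, was 5.23% in replicate 1, with a 95% Wilson interval from 5.20 to 5.25, and 4.41% (4.39 to 4.43) in replicate 2, or 4.82% ± 0.576 (SD, n = 2). These intervals cover counting error only, and the libraries differed by more than that. A share also depends on the other genes in the total, and this difference was not recomputed under other scalings of the libraries. The 3 leading members, Mir487b, Mir411 and Mir409, held 38.4% of the array's counts in replicate 1 and 43.0% in replicate 2. The leading 10 held 81.7% and 82.0%. Across the 35 members with at least 10 summed counts, mean levels ran from 3.91 to 8015 CPM, a range of 2052-fold, with a median of 392 CPM. The median over all 448 genes with that many counts was 76.3 CPM.

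Mir487b (ENSMUSG00000076219.1, chr12:109727333-109727414) was the leading hairpin in both libraries, at 7231 CPM in replicate 1 and 8799 CPM in replicate 2. It ranked 25th of the 1973 genes by mean CPM. Mir411 (ENSMUSG00000065477.2, chr12:109710175-109710256) held 6842 and 4984 CPM in replicates 1 and 2. For Mir409 (chr12:109743158-109743236) the levels were 6273 and 5380 CPM. Mir411 and Mir409 changed places between the libraries, Mir411 being 1.09-fold the higher in replicate 1 and 0.926 of Mir409 in replicate 2, so their order is not set by these data. Mir487b stood above both in each library, but over Mir411 by only 1.06-fold in replicate 1 against 1.77-fold in replicate 2.

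Below these came Mir541 (chr12:109742409-109742498) at 4731 and 3125 CPM. A block of 5 hairpins then lay close together, with Mir376a at 3130 ± 639 CPM, Mir379 at 3104 ± 555 CPM, Mir369 at 2965 ± 312 CPM, Mir381 at 2717 ± 340 CPM and Mir382 at 2690 ± 537 CPM (SD, n = 2 for each). Neighbours within this block had overlapping ranges over the libraries, and 3 of its 4 neighbouring pairs changed order between them. Mir299a followed at 1862 and 1335 CPM, below Mir382 1.65-fold in replicate 1 and 1.73-fold in replicate 2.

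Around 1000 CPM stood Mir154 (1202 ± 360 CPM), Mir380 (1146 ± 94.8 CPM), Mir1193 (1112 ± 12.8 CPM) and Mir134 (1062 ± 27.4 CPM). Mir134, whose miRNA acts on dendritic spines, thus lay at 1043 CPM in replicate 1 and 1081 CPM in replicate 2, within the leading 14 members and at rank 100 among all genes. In all, 14 members reached a mean of 1000 CPM, and these 14 were also the members among the 100 most abundant genes. Of the 34 neighbouring pairs in the order of the 35 members with at least 10 counts, 25 had overlapping ranges and 21 kept their order in both libraries.

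A further 13 members held a mean of 113 to 683 CPM. Mir323 led them at 819 CPM in replicate 1 and 547 CPM in replicate 2, followed by Mir300 at 683 and 543 CPM and Mir494 at 627 and 400 CPM. Mir376c (392 ± 92.6 CPM), Mir543 (359 ± 115 CPM), Mir667 (218 ± 13.6 CPM) and Mir329 (199 ± 29.9 CPM) came next. Mir485, known from synapses, held 187 CPM in replicate 1 and 179 CPM in replicate 2. The rest of this tier was Mir679 (177 ± 40.2 CPM), Mir496a (172 ± 34.5 CPM), Mir410 (159 ± 51.4 CPM), Mir377 (121 ± 22.0 CPM) and Mir495 (113 ± 28.1 CPM).

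The lowest 8 of the members with at least 10 counts ranged from 3.91 to 93.1 CPM. Mir758 held 93.6 CPM in replicate 1 and 92.7 CPM in replicate 2, Mir1197 held 40 counts and 38 counts, and Mir544 held 18 and 12 counts. Gm27379, a predicted hairpin, had 5 and 3 counts and was not tested. Mir654 and Mir453 had no count in either library, which allows up to 3 counts, or 0.809 CPM in replicate 1 and 0.740 CPM in replicate 2. For these 2 hairpins expression was not detectable at this depth.

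**Figure D1:**
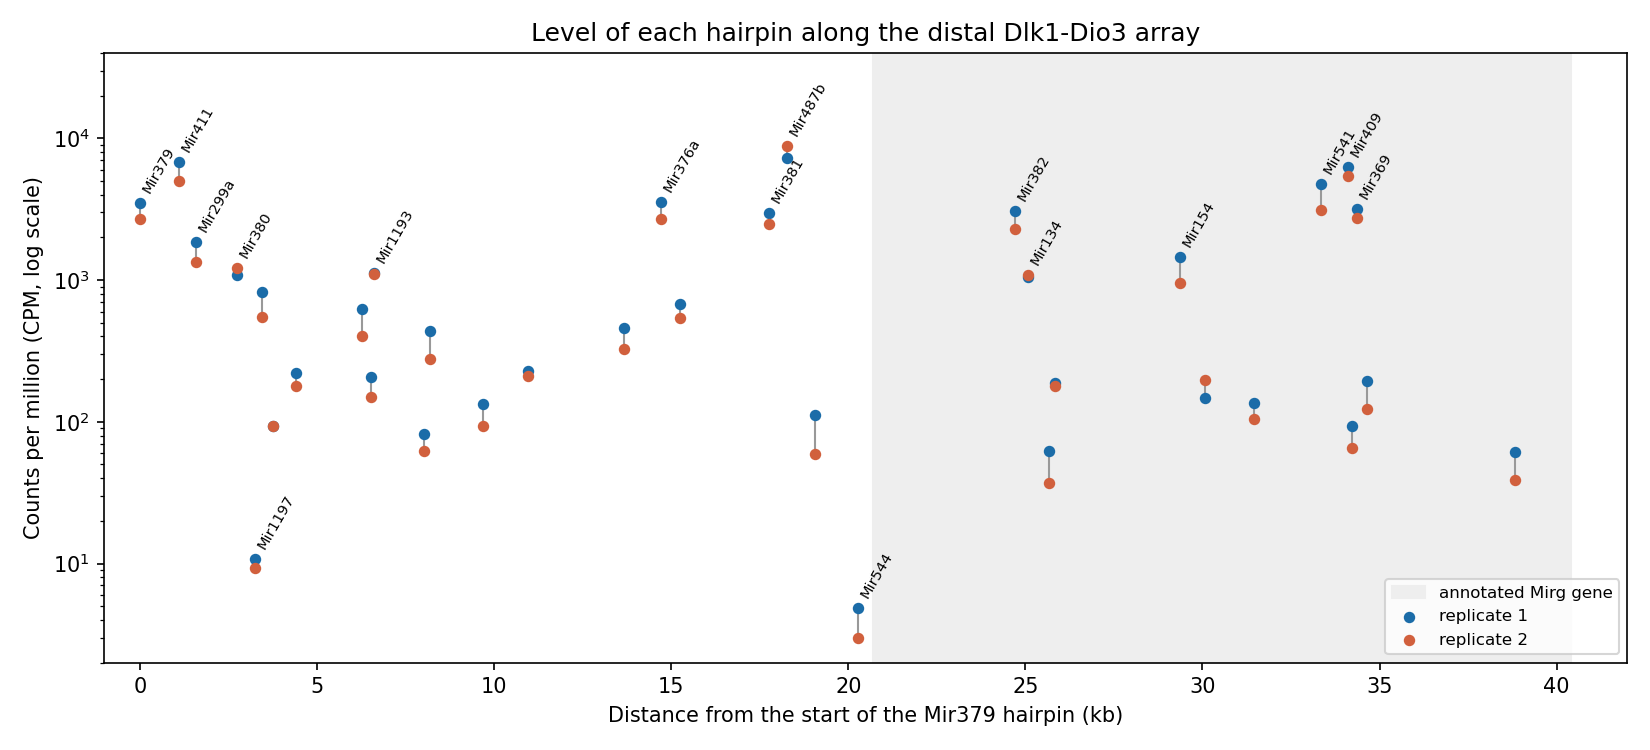
Level of each array member with at least 10 summed counts, in CPM on a log scale, against its distance in kb from the start of the Mir379 hairpin. Each dot is 1 library, a grey line joins the 2 libraries of a hairpin, and the shaded band is the annotated Mirg gene. Members above 1000 CPM occur at both ends and in the middle, with hairpins below 100 CPM between them.

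The reads of 4 members, Mir409 and Mir376a among the leading ones, were found only on the strand opposite the row given for their bases. For Mir409 they came to 23263 in replicate 1 and 21822 in replicate 2, while the minus strand of the same bases, Gm24321, had 0 in both. Mir376a had 13283 and 10864 plus-strand reads against 0 for Gm25252, and Mir380 had 4000 and 4918 against 0 for Gm25750. Mir299a had 6907 and 5413 against 14 and 6 minus-strand reads for Mir299b. None of the 34 members read from their own row had a read on the other strand. Together the 4 held 24.2% of the array's counts in replicate 1 and 23.8% in replicate 2. They also made up 60.5% of all opposite-strand counts on miRNA genes in replicate 1 (95% Wilson interval 60.1 to 60.8) and 62.7% in replicate 2 (62.3 to 63.0). Without them the array's share of own-strand counts was 3.71%.

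The name Mirg fits part of the array only. In the GENCODE M21 annotation the host gene Mirg runs over chr12:109729764-109749460 on the plus strand and contains 14 members, 9 overlapping an exon of at least 1 transcript and 5 in introns. The other 24 members, from Mir379 to Mir544, lie upstream of it with no annotated host gene on their strand. These upstream members held 61.0% of the array's counts in replicate 1 and 63.4% in replicate 2. The members inside Mirg, among them Mir409, Mir541, Mir369 and Mir382, held 39.0% and 36.6%. Among members with at least 10 counts, the median mean level was 453 CPM for the 22 upstream and 183 CPM for the 13 inside Mirg. Spearman's rho of level against start position over the 35 members was -0.12, a description across hairpins that share their libraries and lie on neighbouring bases.

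Hairpins beside each other differed widely in level. Among 14 neighbouring pairs less than 500 bases apart, both with at least 10 counts, the higher exceeded the lower by 2.14-fold to 129-fold. Of these pairs, 7 differed at least 5-fold and 5 at least 10-fold in both libraries. The clearest stretch is at the distal end, where Mir409, Mir412, Mir369 and Mir410 lie within chr12:109743158-109743795. Mir409 exceeded Mir412, which lies 52 bases beyond it, by 67.0-fold and 82.7-fold in replicates 1 and 2. Mir369, 49 bases further on, exceeded Mir412 by 34.1-fold and 42.2-fold, and exceeded Mir410 by 16.3-fold and 22.4-fold. Mir412 itself held 93.6 CPM in replicate 1 and 65.1 CPM in replicate 2.

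The same was seen near the proximal end of the array. Mir380 exceeded Mir1197, 453 bases away, by 100-fold and 129-fold in replicates 1 and 2, and Mir323, 71 bases beyond Mir1197, exceeded it by 75.9-fold and 58.3-fold. Mir1193 and Mir679, only 20 bases apart, differed by 5.46-fold and 7.42-fold. For pairs less than 500 bases apart the median fold between neighbours was 5.41 in both replicate 1 and replicate 2. For the 17 pairs further apart it was 3.17 and 2.97. No pair under 500 bases apart was within 2-fold in both libraries.

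Related hairpins were compared next. The arms miR-379-3p and miR-411-3p share a seed and differ at 2 positions, U10C and U22C, counted from 1 at the 5′ end with the base of miR-379-3p first. Their 5p arms, by contrast, differ by G2A inside the seed. Mir411 exceeded Mir379 1.96-fold in replicate 1 and 1.84-fold in replicate 2. The 5p arm of Mir379 instead shares its seed with miR-1193-5p, whose hairpin stood 3.12-fold below Mir379 in replicate 1 and 2.46-fold below it in replicate 2.
miR-379-5p: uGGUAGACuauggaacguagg
miR-1193-5p: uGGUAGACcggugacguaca
miR-411-5p: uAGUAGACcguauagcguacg

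The 3p arms of Mir381 and Mir300 differ at 3 positions, A4G, G21U and U22C with the base of miR-381-3p first, and the first of these lies in the seed. Mir381 exceeded Mir300 4.33-fold in replicate 1 and 4.56-fold in replicate 2. The sequences are shown because a single base separates the seeds of an abundant and a less abundant hairpin.
miR-381-3p: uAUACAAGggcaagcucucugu
miR-300-3p: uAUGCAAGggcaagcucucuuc

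The remaining shared seeds joined members of unequal level. GGUUGUC is carried by miR-494-5p and miR-410-5p, and Mir494 exceeded Mir410 by 3.22-fold and 3.27-fold in replicates 1 and 2. GGUUGAC is carried by miR-1197-5p and miR-758-5p, with Mir758 above Mir1197 by 8.68-fold and 9.89-fold. GGUUGCC is carried by miR-453, whose hairpin had no count, and miR-496a-5p. In all, 5 seeds stood on more than 1 arm and joined 9 members, which held 23.7% of the array's counts in replicate 1 and 21.6% in replicate 2. None of the 5 seeds occurred on another mature arm of the table outside the array.
miR-494-5p: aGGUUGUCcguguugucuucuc
miR-410-5p: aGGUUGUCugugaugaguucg
miR-758-5p: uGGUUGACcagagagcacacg
miR-1197-5p: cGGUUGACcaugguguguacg
miR-496a-5p: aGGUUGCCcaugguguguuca
miR-453: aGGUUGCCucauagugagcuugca

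Short runs of letters recurred in these RNAs, and 4 of them, chosen after the sequences were seen, were counted on the RNA strand only. Hairpins were searched for 35 of the 38 members. The run GGUUG stood in 12 of 69 mature arms of the array (17.4%) and in 43 of 1669 arms of other genes in the table (2.58%). GGUCCAC stood in 5 of the 69 arms, those of the 3p side of Mir379, Mir380, Mir411, Mir412 and Mir758, and in 0 of the 1669. The run CGCUUUA stood in 7 of 35 hairpins of the array, Mir411, Mir1197, Mir543, Mir382, Mir154, Mir377 and Mir410, and in 0 of 970 others. AGUAUC stood in 6 of 35 hairpins of the array (17.1%) and in 15 of 970 others (1.55%). Hairpins with CGCUUUA included the abundant Mir411 and the scarce Mir1197. Hairpin length ran from 61 to 123 nt with a median of 79, and GC content from 29.1% to 72.3% with a median of 44.4%. Over the 35 members with at least 10 summed counts, Spearman's rho of level against GC content was -0.26. Against hairpin length it was -0.10, and both are descriptions.

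Likeness also limits counting, since a read matching more than 1 place in the genome was assigned to none of the genes. Mir376c shares a run of 31 nt with Mir376b, Mir411 and Mir758 share 21 nt with each other, Mir299a shares 21 nt with Mir299b, and Mir487b shares 20 nt with Mir376b. These 5 members held 31.1% of the array's counts in replicate 1 and 34.9% in replicate 2. How many of their reads were held back was not tested. Such multiply mapped reads were 25.2% of the total for replicate 1 and 27.3% for replicate 2.

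The libraries were then compared gene by gene by an exact binomial test (two-sided, with the own-strand totals setting the null share), adjusted by Benjamini-Hochberg over all 448 genes with at least 10 summed counts. This test compares 2 libraries against counting noise, not conditions. Copies made by PCR were counted as separate reads, which makes the p-values smaller than they should be. Of the 35 members tested, 28 differed between the libraries (80%), against a background of 53.6% of all genes tested. Among them 25 were higher in replicate 1 (71.4%, background 45.5%) and 3 were higher in replicate 2 (8.57%, background 8.04%), while 7 did not pass. The test sees smaller differences where counts are higher, and the members' median level was above that of all genes tested. Among genes with at least 100 summed counts, 28 of 33 members and 230 of 305 genes differed. With a pseudocount of 0.5 counts, the log2 ratio (replicate 1 over replicate 2) had a median of 0.41 over the members and 0.27 over all genes tested.

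By total counts 8 of the 28 members reached 1.5-fold and 0 reached 2-fold, all 8 of them higher in replicate 1. This count depended on the scaling, since 2 members reached 1.5-fold under each of 3 other scalings, namely the trimmed mean of M values (TMM), DESeq2's size factors and totals that leave out the 10 most abundant genes. They were Mir539, higher in replicate 1 with log2 ratios of 0.63, 0.68 and 0.71 in that order, and Mir496a, higher in replicate 2 with -0.70, -0.65 and -0.62. Of the members tested, Mir539 differed most, with 414 counts in replicate 1 and 240 in replicate 2, a log2 ratio of 0.91 (exact binomial adjusted p = 7.28e-15). Mir668 (1.68-fold), Mir410 (1.59-fold), Mir543 (1.59-fold), Mir3072 (1.58-fold), Mir494 (1.57-fold), Mir154 (1.54-fold) and Mir541 (1.51-fold) were also higher in replicate 1 by total counts. Of these, Mir541 and Mir154 rest on the most reads, 17547 against 12675 for Mir541 and 5401 against 3842 for Mir154. With TMM their log2 ratios were 0.31 and 0.33, still past the test. By total counts, log2 ratios ran from -0.41 to 0.91 over the members and from -1.75 to 2.94 over all 448 genes tested. How many of all genes tested reached 1.5-fold or 2-fold is not given here.

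The 3 members higher in replicate 2 were Mir487b, Mir496a and Mir380. Mir487b had 26816 counts in replicate 1 and 35689 in replicate 2, a log2 ratio of -0.28 (exact binomial adjusted p = 3.53e-130). For Mir496a the counts were 546 and 795, with a log2 ratio of -0.41 (exact binomial adjusted p = 7.34e-07). Mir380 had 4000 and 4918 counts and a log2 ratio of -0.17 (exact binomial adjusted p = 1.26e-07). Mir496a lies 620 bases from Mir154, which was called higher in replicate 1 under all 4 scalings.

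As shares of the array, which no scaling of the libraries can move, Mir487b made up 13.7% in replicate 1 and 19.7% in replicate 2. Mir409 stayed near 11.9% and 12.1%, Mir381 near 5.59% and 5.56%, and Mir369 near 6.02% and 6.16%. Mir541 went the other way from Mir487b, with 8.94% and 7.01%. Over the 35 members, the levels of the libraries had a Pearson's r of 0.994 on the log2(CPM + 1) scale, with a Spearman's rho of 0.990. Both describe hairpins, not samples.

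**Figure D2:**
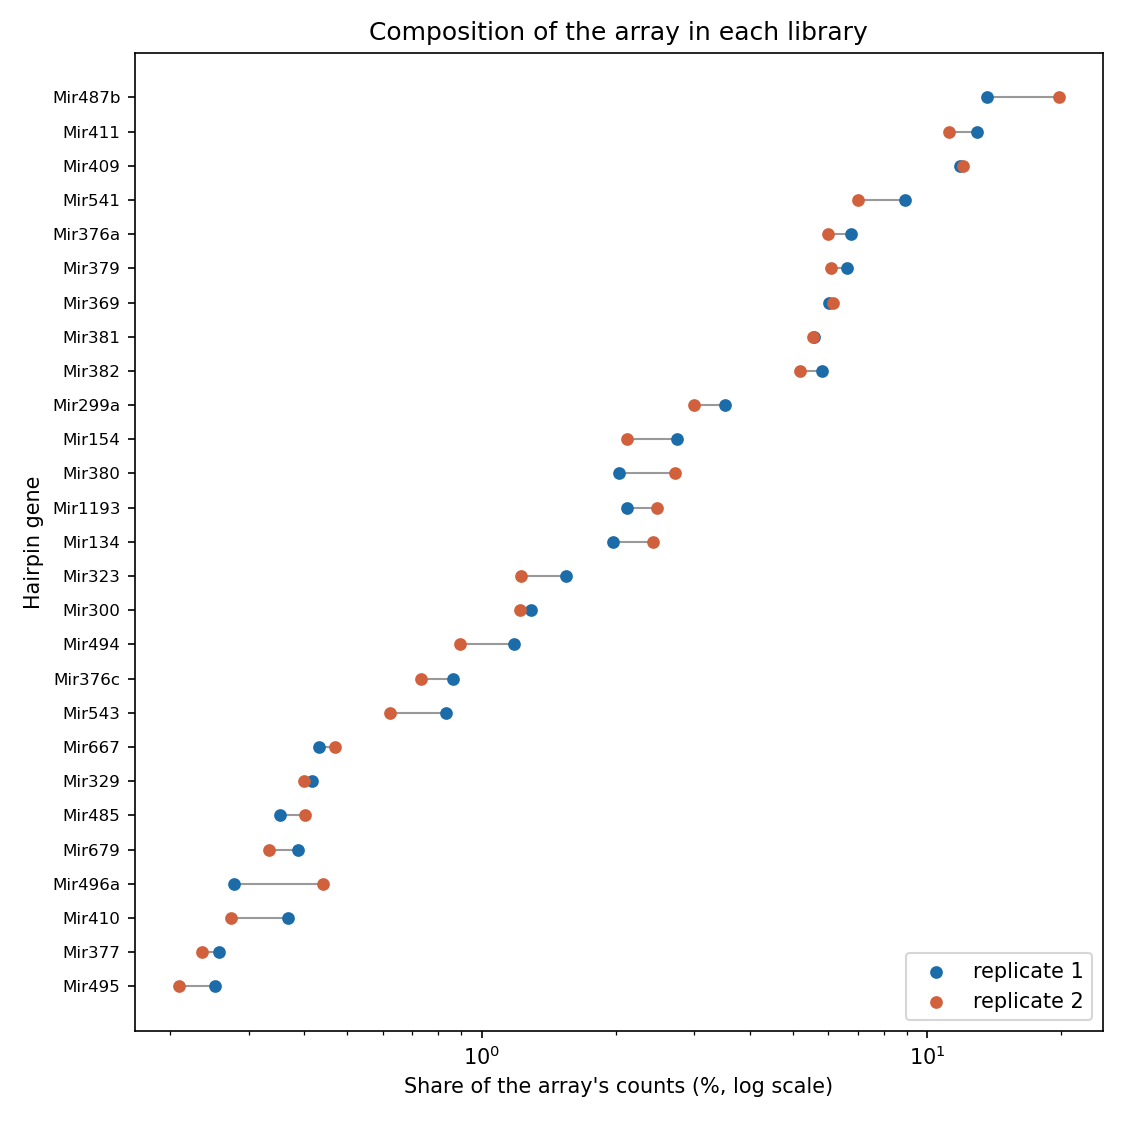
Share of the array's counts, in percent on a log scale, held by each of the 27 members with a mean of at least 100 CPM. Dots are the 2 libraries, joined by a grey line. Mir487b moves from 13.7% to 19.7%, while Mir409, Mir369 and Mir381 hold nearly the same share in both.

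**Figure D3:**
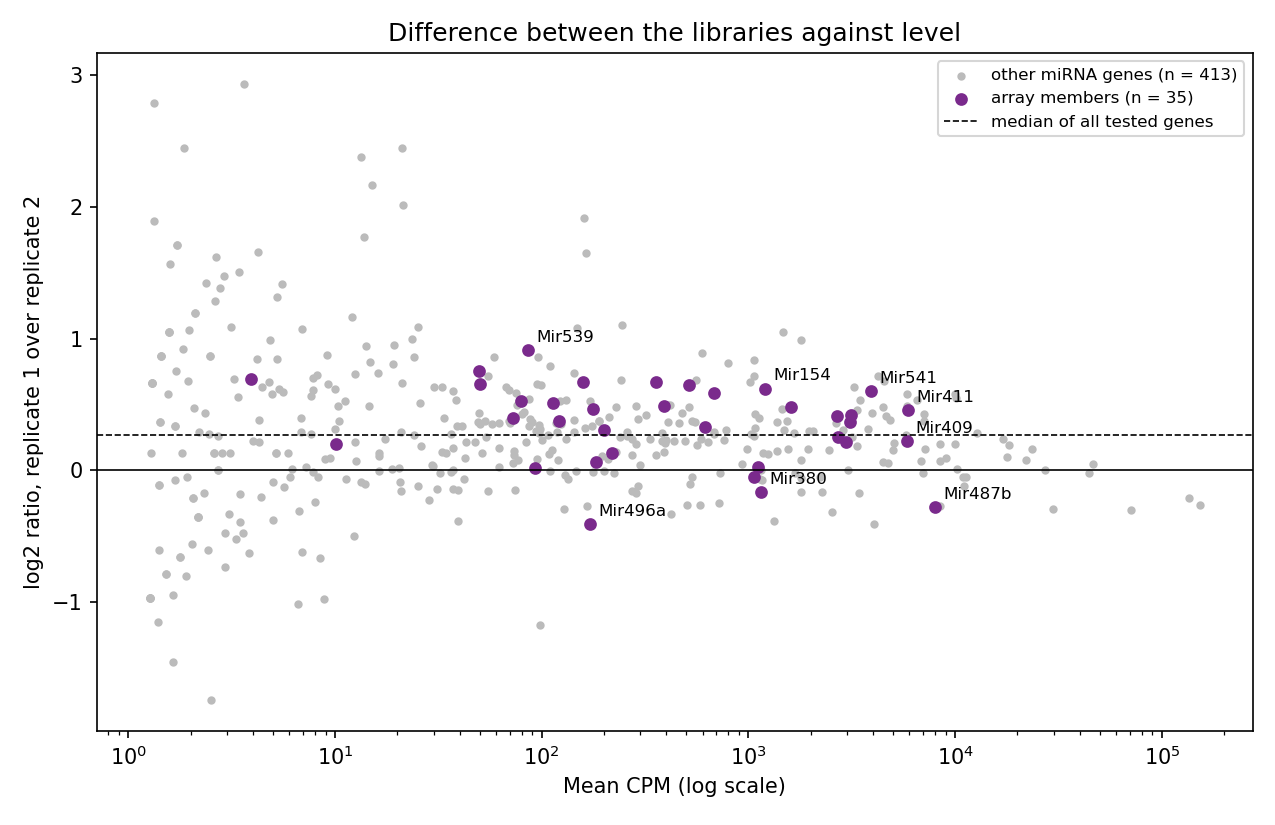
The log2 ratio of replicate 1 over replicate 2 against mean CPM on a log scale, for the 448 genes with at least 10 summed counts. Purple dots are the 35 array members, grey dots the 413 other genes, and the dashed line is the median of all 448 at 0.27. Most members lie above 0, with Mir487b, Mir496a, Mir380 and Mir134 below it.

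Directions near 0 depended on how the libraries were scaled. Scaling by TMM moved every log2 ratio by -0.29 and left 15 members higher in replicate 1 and 9 in replicate 2. With DESeq2's size factors the split was 18 and 5. With totals that leave out the 10 most abundant genes it was 20 and 5. Over all 448 genes tested, the splits in that order were 83 and 98, 104 and 86, and 112 and 75. Under all 4 scalings, 15 of the 35 members were called higher in replicate 1 and 3 higher in replicate 2 each time. The 3 were Mir487b, Mir496a and Mir380. How many of all genes tested kept their call in this way is not given here. Mir409 and Mir369 were called higher in replicate 1 by total counts and higher in replicate 2 by TMM. Mir134 and Mir1193 did not pass by total counts but were called higher in replicate 2 under each of the other scalings. The members' median stayed 0.14 above that of all genes under each of the 4 scalings, which shift all genes alike.

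**Figure D4:**
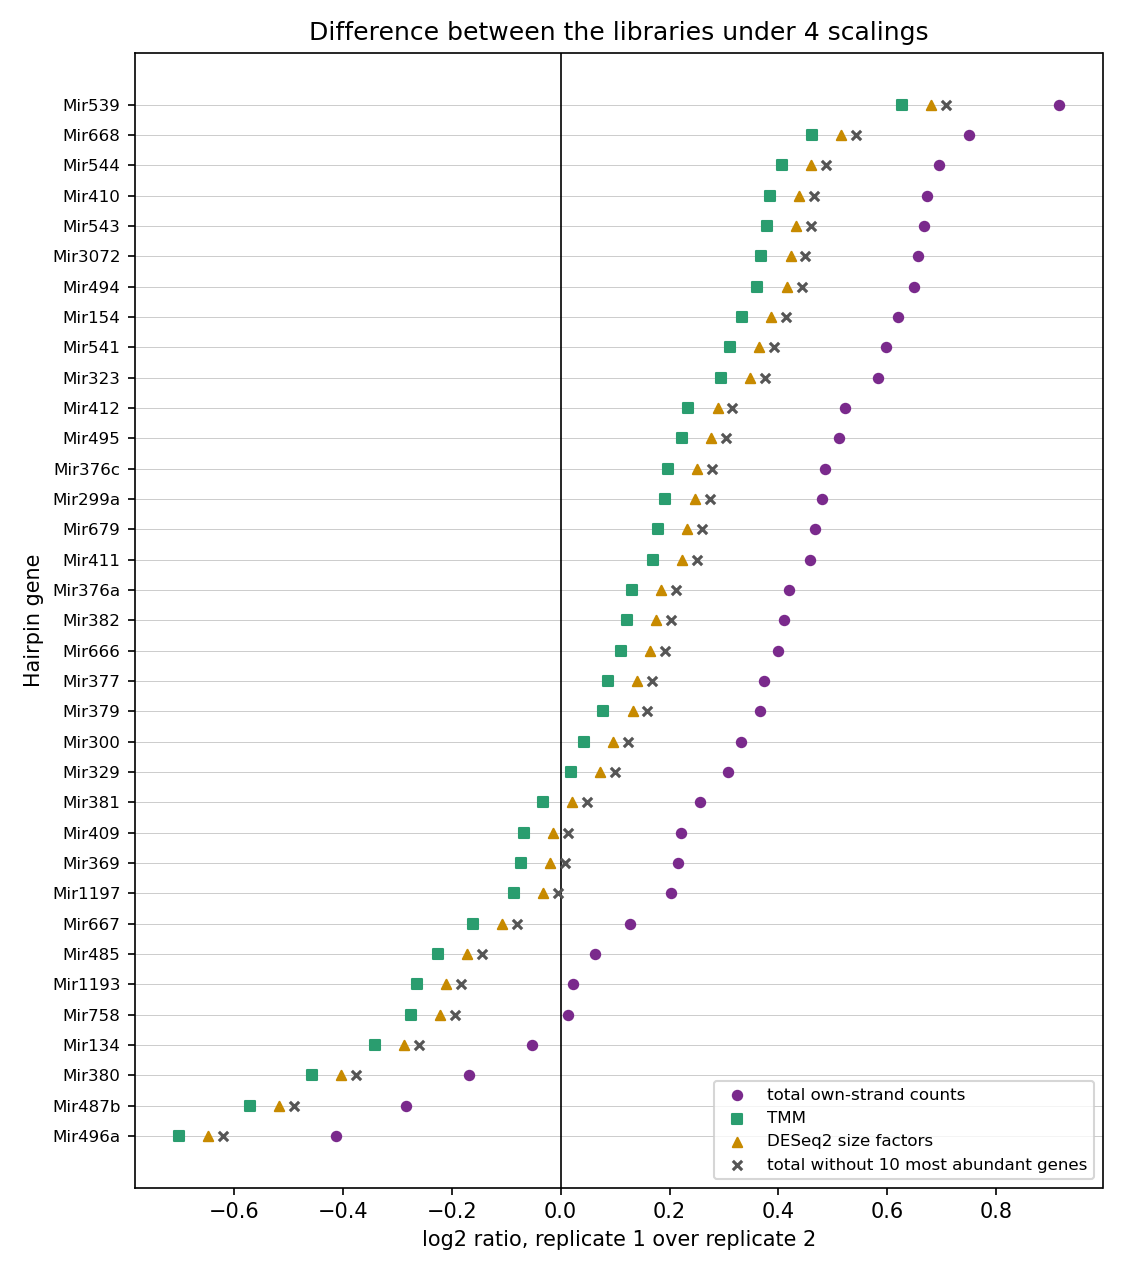
The log2 ratio of replicate 1 over replicate 2 for each of the 35 tested members under 4 scalings of the libraries, 1 marker shape and colour per scaling. Mir539 stays highest and Mir496a lowest, and 8 members, Mir381, Mir409, Mir369, Mir1197, Mir667, Mir485, Mir1193 and Mir758, lie above 0 by total counts and below it with TMM.

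The miRNA genes of the same domain on the near side, from Meg3 to the end of the Rian region, were set beside the array. These 20 rows held 61605 own-strand counts in replicate 1 and 53976 in replicate 2, or 1.64% and 1.32% of counts. The distal array exceeded them 3.19-fold in replicate 1 and 3.35-fold in replicate 2. The array's sum runs over 38 members and includes 47453 and 43017 opposite-strand reads of 4 of them. No opposite-strand reads were added for the proximal rows. Among genes with at least 10 summed counts, the median mean level was 637 CPM for the 15 proximal genes and 392 CPM for the 35 array members. The leading proximal genes were Mir431 (4621 ± 928 CPM), Mir127 (3779 ± 583 CPM), Mir434 (1135 ± 35.9 CPM) and Mir433 (1015 ± 329 CPM). Only Mir487b, Mir411 and Mir409 of the array stood above Mir431 by mean CPM. Of the 15 proximal genes tested, 10 were higher in replicate 1, 0 higher in replicate 2 and 5 did not pass, with a median log2 ratio of 0.28 by total counts, which falls just below 0 with TMM. Whether the array and the proximal genes differ in this was not tested.

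Markers of the labelled tissue were present. Of the neural genes listed, 9 of 10 were measured and none was at 0, with summed levels of 8640 CPM in replicate 1 and 7465 CPM in replicate 2. Most of that sum came from Mir92b (4979 ± 383 CPM) and Mir137 (1965 ± 289 CPM). The copies of Mir9 and Mir124a, the best known neural genes of the list, were low, with Mir9-3 at 200 CPM, Mir124a-2 at 10.5 CPM and Mir9-2, Mir124a-1 and Mir124a-3 between 1.56 and 2.46 CPM. Their sequence is repeated among copies, and how many of their reads were held back was not tested. Genes of other cell types were also present. The endothelial Mir126a held 24945 and 22302 CPM, the 3 cartilage and mesenchyme genes 23696 and 17411 CPM, and Mir206, a skeletal muscle gene, 1358 and 761 CPM. The other muscle genes were low, with Mir133b at 36.2 CPM and Mir1a-1 at 0.270 CPM in replicate 1 and 0 in replicate 2. Whether reads of these genes were held back for matching more than 1 place was not tested either. The 3 measured blood genes held 786 and 559 CPM and the 2 liver and endocrine genes 230 and 234 CPM. By total counts all lists but the last were higher in replicate 1, as were most array members, but the neural and endothelial lists were lower there with TMM or DESeq2's size factors, and the endothelial list also with the reduced totals. Their part in the array's levels was not tested.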

How the data were processed

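The authors deposited raw read counts per miRNA gene for mm10 and GENCODE M4, per the file headers. Aligner and counter were not given in the sources used here. Each library had 3 unnamed columns of counts, read as either, own and opposite strand from their sums. Reads naming no gene (56.5% and 47.0% of reads in replicates 1 and 2) stayed out of totals and tests. The number of per-sample columns tied to no sample was 0.

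Identifiers were matched to GENCODE M21 (1894 of 1973 rows), which gave positions, hosts and hairpins. CPM used the own-strand total. A shared hairpin run means at least 20 nt. The members and lists were chosen with earlier results of these data known. Named genes were members with a mean of at least 100 CPM, the 4 opposite-strand members, members past the test by at least 1.5-fold, the 4 leading proximal genes and the listed markers. Other members named were singled out after their values were seen. The labels give separate pools as biological replicates, and p-values measure only the distance between these libraries. The test was checked on simulated counts that vary by counting noise alone, so the check does not cover other variation between libraries. Software was edgeR 4.0.16 (TMM), DESeq2 1.42.0 (size factors), R 4.3.3, scipy 1.17.1 (the binomial test), pandas 2.3.3 and numpy 2.4.6 under Python 3.11.15.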

Additional observations from a re-analysis of the deposited data

Results flagged for a closer look

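Reads on the minus strand at Mir299a, the strand of the annotated Mir299b row, came to 14 in replicate 1 and 6 in replicate 2. They stand out because no other member had a read on the strand not used for it, and both counts lie above the 3 counts that a count of 0 allows. They compare with 6907 and 5413 plus-strand reads at the same hairpin, whose RNA shares a run of 21 nt with that of Mir299b.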

How the results depend on the processing

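The array's share was 4.82% as reported, 3.71% without the 4 opposite-strand members and 3.24% without the 5 members that share a run of at least 20 nt. It was 4.41% to 5.23% with 1 replicate left out. The share was 1.18-fold higher in replicate 1. This fold was not recomputed under other scalings, of which TMM moved every log2 ratio by -0.29. The array's median log2 ratio of 0.41 was 0.12 with TMM, 0.18 with DESeq2's size factors and 0.20 with totals that leave out the 10 most abundant genes. The 28 members that differed became 24, 23 and 25 in that order, and stayed 28 without a count filter, with at least 100 summed counts and with either-strand reads. Over all genes the 240 calls (204 higher in replicate 1, 36 in replicate 2) became 181 (83 and 98) with TMM, 190 (104 and 86) with DESeq2's size factors and 187 (112 and 75) with those totals.

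Of the 30 members given values by rule, the log2 ratio changed sign for 6 with TMM, 5 with DESeq2's size factors and 3 with the reduced totals. With TMM it was -0.26 for Mir1193, -0.16 for Mir667, -0.032 for Mir381, -0.23 for Mir485, -0.067 for Mir409 and -0.073 for Mir369. With DESeq2's size factors it was -0.21 for Mir1193, -0.11 for Mir667, -0.17 for Mir485, -0.013 for Mir409 and -0.019 for Mir369. With the reduced totals it was -0.18 for Mir1193, -0.080 for Mir667 and -0.15 for Mir485. A scaling moves every gene alike, which is how these signs changed. The pseudocount does not enter the test, and 1 count in place of 0.5 changed the sign of 0 of the 30 log2 ratios. The test cannot be run with 1 library left out. No paired analysis was possible because the series holds 1 group. Mir544 and Gm27379 rest on 30 or fewer summed counts, and their levels are the least certain.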
